A study of Mus musculus with 2 samples.

Results

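The antioxidant genes governed by the transcription factor Nrf2 were compared between liver of Bglu3 congenic mice and liver of C57BL/6 apoE-/- control mice. Of the 10 genes considered (Nfe2l2, Keap1, Gclc, Gclm, Nqo1, Hmox1, Txnrd1, Srxn1, Pgd and G6pdx), 9 had a probe set whose only gene symbol in the platform annotation was theirs. These 9 genes had 21 probe sets, of 34945 probe sets with 1 symbol and 45101 in all, and the intensity of G6pdx is not analysed here. Each group was read on 1 Affymetrix array. Mice of both groups were weaned at 3 weeks onto chow, received a Western diet from 6 weeks of age for 12 weeks, and are labelled as hyperglycemic with a C57BL/6 strain background. The Bglu3 locus, named for its effect on blood glucose, maps to chromosome 1, and none of the 10 genes lies on that chromosome in the gene table of assembly GRCm38.p6. The chromosomes of the other genes named below are not given here, and some of those genes may lie on chromosome 1. The number of mice behind an array, their sex and the apoE genotype of the congenic mice are not given in the labels.

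Nrf2, encoded by Nfe2l2, binds antioxidant response elements together with a small Maf protein and drives genes for glutathione synthesis, quinone reduction, thioredoxin recycling and NADPH supply. In unstressed cells Keap1 holds Nrf2 in the cytoplasm and hands it to a ubiquitin ligase built on Cul3, so that Nrf2 is regulated mainly at the level of protein. In liver the pathway is known for protection against electrophiles and oxidants. The arrays measured messenger RNA alone.

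All differences are log2(intensity + 5) on the congenic array minus log2(intensity + 5) on the control array, where 5 is a pseudocount that keeps dim probe sets from dominating and makes their differences smaller. Since each group has 1 array, the variation among mice is unknown and neither a test nor an error can be given. A size of 1.5-fold (0.58 on this scale) was used to count, and the same counts over all probe sets are given as background. Probe sets of 1 gene read the same 2 arrays, so their agreement speaks for the arrays and not for other mice. A probe set called expressed here was at or above the median of its array on at least 1 array, and 19 of the 21 met this. Over all probe sets, the congenic array had a median intensity of 19.3 and the control array one of 19.7.

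The 9 genes differed by less than 1.5-fold between the arrays by their brightest probe sets, in both directions. Both probe sets of Nfe2l2 and all 4 of Pgd had higher intensity in the congenic array, by 1.24-fold to 1.43-fold. All 4 probe sets of Gclc and Gclm, and the single probe sets of Nqo1 and Hmox1, had lower intensity there, by 1.07-fold to 1.27-fold. Keap1 lay close to 0, and the probe sets of Srxn1 and Txnrd1 did not agree among themselves. One of the 21 probe sets was higher by 1.5-fold or more, against 8.86% of all probe sets with 1 symbol, and 1 was lower by that much, against 9.1%. Among the 19 expressed probe sets 1 was higher (background 7.22%) and 0 were lower (background 6.04%). No p-value accompanies these counts, since no test could be made. With each gene taken at its brightest probe set (highest mean of the arrays), 0 of the 9 genes were past 1.5-fold in either direction. Over 12613 expressed genes 7.59% were higher and 5.26% lower. Apart from that of Nqo1, these probe sets fell in the brightest of 4 equal intensity classes of expressed probe sets. In that class 3.01% were higher and 2.78% lower, so a count of 0 among 9 genes is close to the background. The median over the 9 genes was -0.13, beside 0.04 over all expressed genes.

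**Figure D1:**
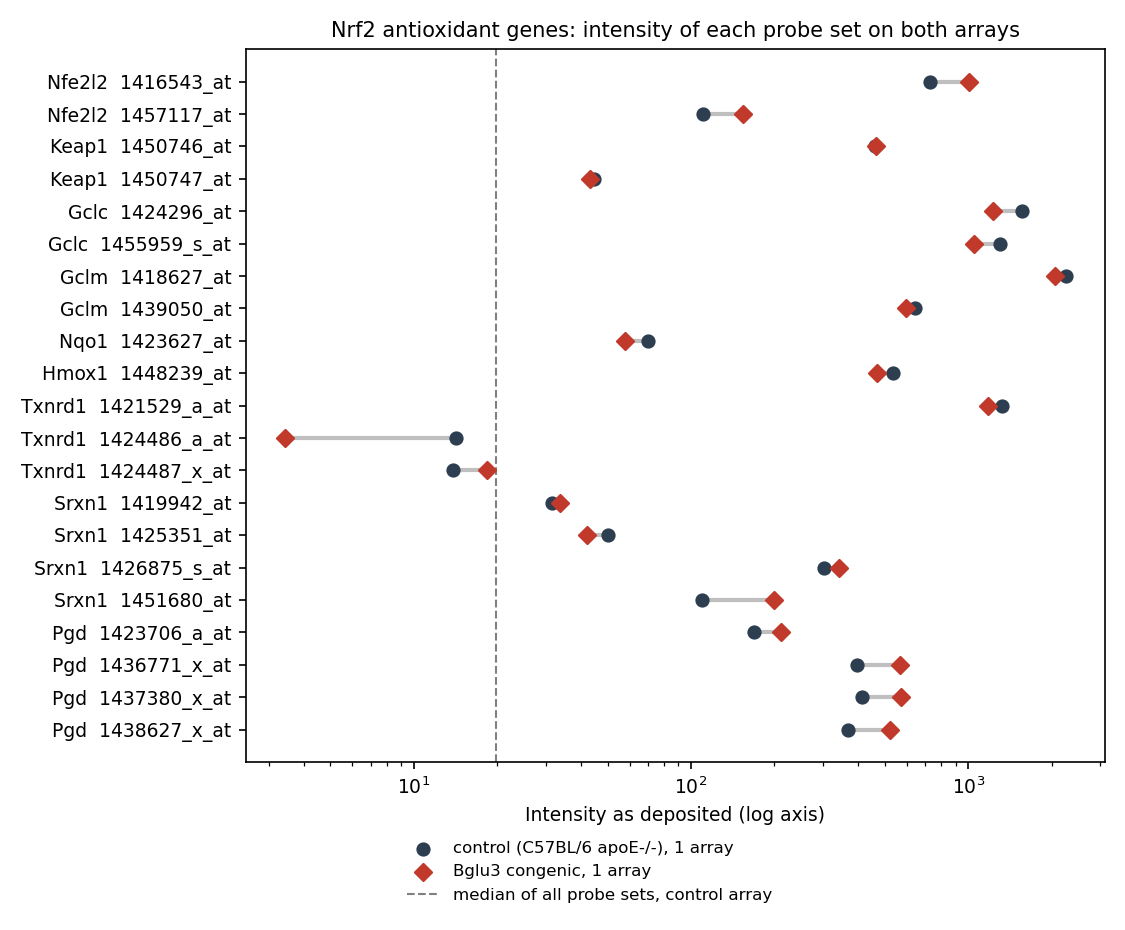
Intensity of each of the 21 member probe sets (log axis, in the unit deposited) on the congenic array (diamonds) and the control array (circles), 1 array each, with the control array's median over all probe sets as a dashed line. Pairs are to be read within a row only: in Nfe2l2 and Pgd every diamond lies to the right, in Gclc, Gclm, Nqo1 and Hmox1 to the left, and 2 probe sets of Txnrd1 lie below the median on both arrays.

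The letters that Nrf2 and its Maf partner recognise were looked for in the promoters, to show what the members have in common at the sequence level. The RefSeq promoter table of GRCm38.p6, with 250 bases before and 50 after each annotated start, held 11 promoters for 8 of the 10 genes. The core TGACNNNGC, searched on both strands, occurred in 6 of these 11 promoters and in 6 of the 8 genes, G6pdx among them. Over the whole table it occurred in 12.4% of 32851 promoters and in 14.0% of 27025 genes, and among the other Nrf2 targets in 8 of 36 genes. A match is a stretch of letters and not a site known to be bound. The neighbouring AP-1 motif TGACTCA overlapped none of the 6 matches. The windows of Nqo1 and Keap1 held no match, which says only that these letters are not in those 300 bases. The matches in 5 of the genes are shown on the strand of the gene, with the core in capitals, and a core on the other strand reads as GCNNNGTCA.
Nfe2l2, chr2:75704885-75704913, minus strand: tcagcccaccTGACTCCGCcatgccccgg
Gclm, chr3:122245413-122245441, plus strand: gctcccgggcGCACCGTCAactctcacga
Txnrd1, chr10:82859104-82859132, plus strand: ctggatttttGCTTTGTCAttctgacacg
Srxn1, chr2:152105542-152105570, plus strand: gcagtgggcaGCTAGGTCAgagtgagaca
Pgd, chr4:149166061-149166089, minus strand: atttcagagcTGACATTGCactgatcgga

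In the gene of Nrf2 itself the match began 240 bases before the annotated start. In Gclm it began 134 bases before the start, and in Txnrd1 92 bases before the second of its annotated starts. In Srxn1 it lay 28 bases behind the annotated start, and in Pgd 3 bases behind the second of its annotated starts. The windows of the other annotated starts of Txnrd1 and Pgd held no match. The 5 genes with these letters differed in direction between the arrays, Nfe2l2 and Pgd to the higher side and Gclm to the lower.

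Nfe2l2 had a higher intensity in the congenic array by both of its probe sets. Its brighter probe set, 1416543_at, stood at 1010 on the congenic against 729.7 on the control array, a difference of 0.47 (1.38-fold). The other, 1457117_at, stood at 153 against 110.4, a difference of 0.46 (1.37-fold). Both are plain _at probe sets, designed against a single transcript, and they differed from each other by 0.01. To place these sizes, the expressed probe sets were sorted into 4 classes of equal number by mean intensity. In the brightest class, of 5244 probe sets, 5% lay below -0.44 and 5% above 0.45, and 9.02% had a difference of larger size than that of 1416543_at, in either direction. In the class below it, 14.0% had a larger one than 1457117_at. These percentages describe the array pair and are no test.

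Keap1, the adaptor through which Nrf2 is marked for degradation, was nearly equal on the arrays. It stood at 463 on the congenic against 460.1 on the control array (0.01) by the brighter probe set and at 43.1 against 44.6 (-0.04) by the dimmer. The sign of the first value turned with the scaling of the arrays (-0.02 to 0.04), so no direction can be given. The differences of Nfe2l2 and Keap1 were 0.46 apart, a gap that scaling by a constant alters little at these intensities. Probe sets of the same gene in the brightest class scattered around their gene's mean with an SD of 0.13. The gap was 3.50 times that technical scatter of single probe sets. A gap between probe sets scatters more widely than a single probe set. Over all genes of that class, 5% of probe sets lay below -0.44 and 5% above 0.45. The scatter between mice is not known here.

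The ligase for glutathione was lower in both subunits. Gclc, the catalytic subunit of glutamate-cysteine ligase, which makes the rate-limiting step of glutathione synthesis, had 1233 on the congenic against 1563 on the control array by probe set 1424296_at, a difference of -0.34. The probe set 1455959_s_at gave 1051 against 1302, a difference of -0.31. Both therefore read about the same ratio. Among the brightest probe sets 16.3% had a larger difference than the first and 19.6% than the second. Gclm, the modifier subunit that raises the activity of the catalytic one, had 2057 against 2248 (-0.13) and 596 against 641 (-0.10). The subunits lay 0.21 apart, 1.63 times the technical scatter of single probe sets, and 54.4% of the brightest probe sets differed by more than the brighter one of Gclm.

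Nqo1 and Hmox1, the classical inducible targets, each had 1 probe set. Nqo1, a reductase that keeps quinones from redox cycling, had an intensity of 57.9 on the congenic against 69.9 on the control array, a difference of -0.25. In its intensity class 46.2% of probe sets had a larger difference. Hmox1, haem oxygenase 1, which opens the haem ring and is strongly expressed in macrophages that take up red cells, had 467 against 535, a difference of -0.19. In the brightest class 37.1% had a larger one. Both values lay between the 5th and the 95th percentile of their class.

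Txnrd1, the cytosolic thioredoxin reductase, was read clearly by 1 of its 3 probe sets. That probe set, 1421529_a_at, had 1182 on the congenic against 1319 on the control array, a difference of -0.16. The other 2 were below the median of both arrays. Probe set 1424486_a_at stood at 3.43 against 14.2, a difference of -1.19, and it was the member probe set counted as lower by 1.5-fold. Its difference moved from -0.55 with a pseudocount of 20 to -2.05 without one, so its size rests on that choice. Probe set 1424487_x_at went the other way at 18.3 against 13.8 (0.31).

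Srxn1, sulfiredoxin, which repairs over-oxidised peroxiredoxins, had 4 expressed probe sets that spread over 1.06 on the log2 scale. Probe set 1451680_at stood at 199 on the congenic against 110.0 on the control array, a difference of 0.83 (1.77-fold), the highest of all member probe sets. Of its intensity class 3.19% had a larger difference. The brightest probe set of the gene, 1426875_s_at, stood at 342 against 302 (0.18), 1419942_at at 33.6 against 31.6 (0.08) and 1425351_at at 42.1 against 50.4 (-0.23). Thus 3 of the 4 were higher in the congenic array and 1 lower, and only 1 of the 4 by 1.5-fold. The annotation lists the same complementary DNA clone for 1451680_at and 1425351_at, the pair at the extremes. No single value can be given for Srxn1 from these probe sets.

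Pgd, phosphogluconate dehydrogenase, supplies NADPH in the oxidative branch of the pentose phosphate pathway, and its 4 probe sets all had higher intensity in the congenic array. The brightest, 1437380_x_at, stood at 574 against 414 (0.46). Probe set 1436771_x_at stood at 570 against 396 (0.52), and 1438627_x_at at 522 against 370 (0.49). These 3 carry the suffix _x_at, which marks probes that may also bind other transcripts, and they lay above the 95th percentile of the brightest class. The fourth, 1423706_a_at, stood at 212 against 169 (0.31), a smaller difference in the same direction. None of the 4 reached 1.5-fold. The differences of Pgd and Gclc, both known as Nrf2 targets, lay 0.81 apart, or 6.17 times the technical scatter of single probe sets. This pair sets the lowest of the member genes against the one ranked 2 from the highest, so a wide gap follows from the choice.

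**Figure D2:**
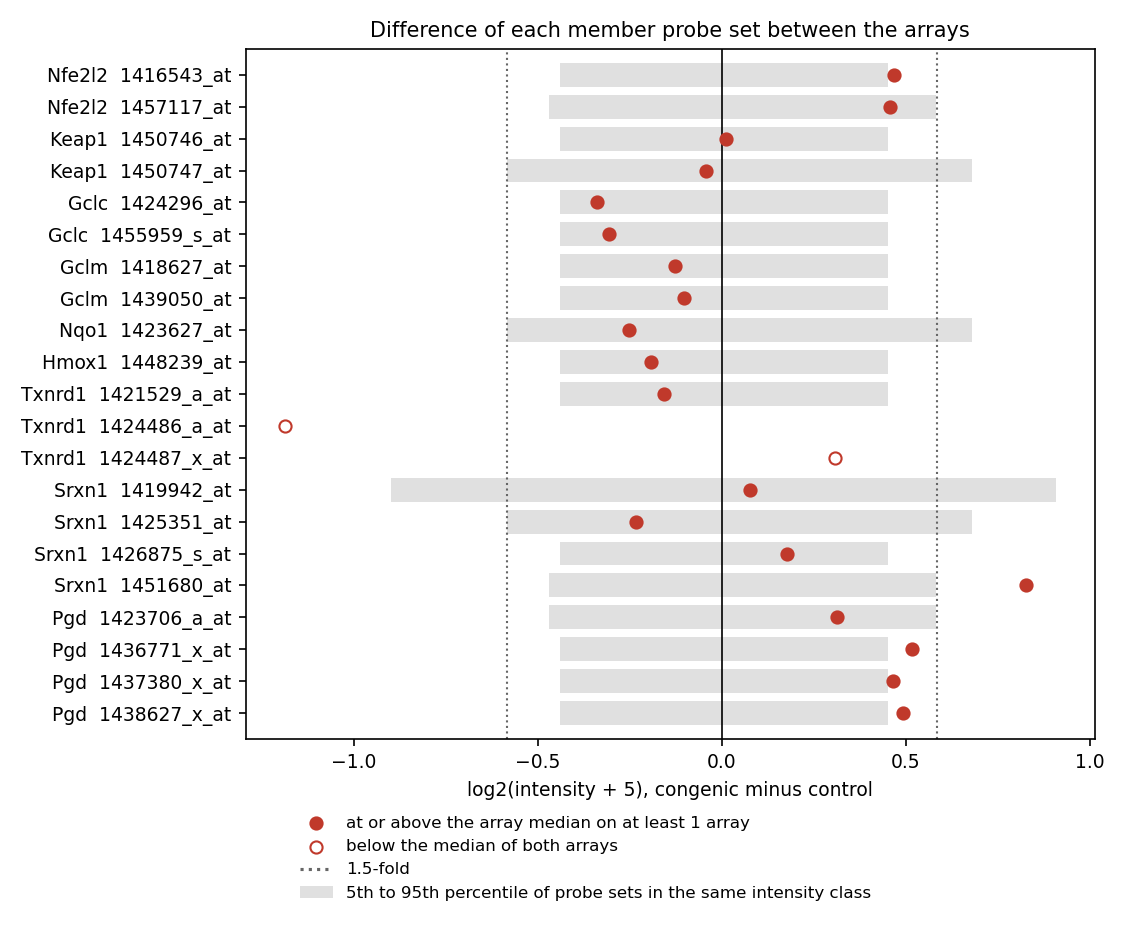
Difference of log2(intensity + 5), congenic minus control, for each member probe set (points, 1 array per group). Grey bars span the 5th to 95th percentile of expressed probe sets in the same intensity class, open points are below the median of both arrays, and dotted lines mark 1.5-fold: the brighter Nfe2l2 probe set, 3 of Pgd and 1 of Srxn1 lie beyond the upper end of their bar.

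**Figure D3:**
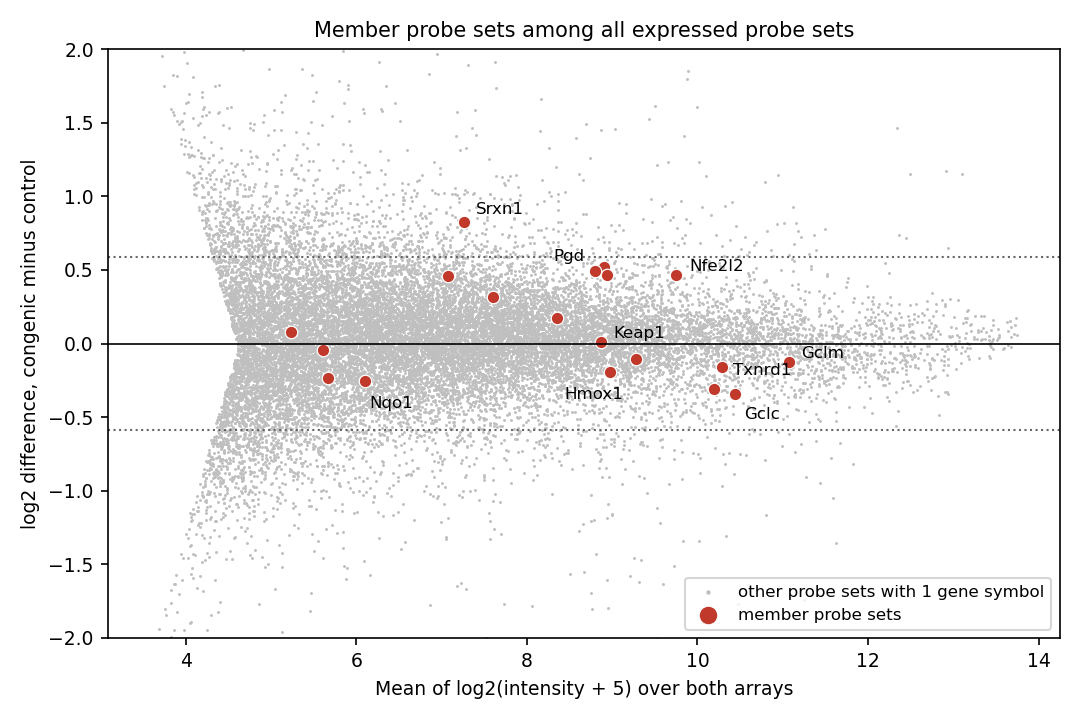
Difference between the arrays (vertical axis, log2) against the mean log2(intensity + 5) of both arrays (horizontal axis) for the expressed probe sets with 1 gene symbol (grey) and the 19 expressed member probe sets (red, 1 per gene named). The vertical axis ends at 2 in either direction and 88 probe sets lie beyond it; 1 member probe set, of Srxn1, lies past the upper dotted line at 1.5-fold, and none of the 19 lies past the lower one.

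Of the member genes, 6 had several expressed probe sets, and in 4 of these (Nfe2l2, Gclc, Gclm and Pgd) all had the same sign. Over all 5189 genes with several expressed probe sets, 52.4% had this.

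The proteins that act with Nrf2 or on it were described from a list of 19 genes, of which 18 were expressed. They lay evenly about 0, 9 above and 9 below, with a median of 0.004 whose sign turned with the scaling (-0.03 to 0.03). By size, 0 were higher and 1 lower by 1.5-fold or more. The one was Maff, a small Maf protein, at 22.6 on the congenic against 139.7 on the control array (-2.39). Mafg, another small Maf that pairs with Nrf2, stood at 400 against 579 (-0.53), with a second probe set at -0.03, and Mafk at 81.7 against 76.7 (0.08). Maff and Mafg were thus lower by their brightest probe sets, and Mafk lay close to 0 (0.03 to 0.11 over the scalings). Bach1, which competes with Nrf2 for the same sites, stood at 495 against 548 (-0.15). Of the ligase that removes Nrf2, the scaffold gene Cul3 stood at 602 against 638 (-0.08, its 5 probe sets from -0.18 to 0.46) and the ring finger gene Rbx1 at 16.3 against 25.8 (-0.54). Rbx1 was dim, below the congenic array's median, and met the filter only through the control array. Its difference ran from -0.67 to -0.34 over the scalings and pseudocounts. Sqstm1, the autophagy receptor that takes Keap1 away, stood at 1789 against 1658 (0.11). The highest members were Fyn, a kinase reported to act on Nrf2 export and also present in lymphocytes, at 130.0 against 86.0 (0.57), the related factor Nfe2l1 at 339 against 284 (0.25) and the phosphatase gene Pgam5 at 192 against 170 (0.18).

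Other genes known as Nrf2 targets were more often below 0 than above it, like Gclc and Gclm. Of 41 genes listed, 31 were expressed, and 19 of these had a negative and 12 a positive difference, with a median of -0.09 beside 0.04 for all expressed genes, of which 56.1% were above 0. Under the other scalings of the arrays 9 to 14 of the 31 were above 0. By size, 0 were higher and 1 was lower by 1.5-fold or more. The lowest were Osgin1, an oxidative stress response gene, at 357 against 561 (-0.64), the glutathione transferase gene Gsta2 at 455 against 632 (-0.47) and the carbonyl reductase gene Cbr3 at 119 against 153 (-0.35). The highest were the transferase gene Gstm3 at 280 against 202 (0.46, its other probe set at 0.0034), the reductase gene Ptgr1 at 134 against 105 (0.34) and Gstp1 at 6005 against 5386 (0.16). Gss, which completes glutathione after the ligase, stood at 265 against 332 (-0.32), and Gsr, which returns it to the reduced form, at 479 against 485 (-0.02, with a sign that turned under 1 or more scalings). Me1, malic enzyme, another source of NADPH, stood at 809 against 1003 (-0.31), opposite in direction to Pgd. Txn1, the substrate of Txnrd1, stood at 6037 against 5879 (0.04). Slc7a11, the cystine carrier, was below the median of both arrays at 8.84 and 10.3. Probe sets of the glutathione transferases can bind transcripts of close relatives, so single members are uncertain.

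The other genes of the pentose phosphate pathway lay mostly closer to 0 than Pgd, with Rpia as the exception. Of 11 genes, 9 were expressed, 6 with a positive and 3 with a negative difference and 0 past 1.5-fold, with a median of 0.07. Rpia, ribose 5-phosphate isomerase, had a difference like that of Pgd at 217 against 156 (0.46). It was followed by the phosphoribosyl pyrophosphate synthetase gene Prps2 at 267 against 223 (0.26, its 3 probe sets from -0.16 to 0.26) and the ribokinase gene Rbks at 330 against 277 (0.25). Pgls, the enzyme just before Pgd in the oxidative branch, stood at 666 against 699 (-0.07), and the lowest were Rpe at 311 against 354 (-0.18) and Prps1 at 343 against 373 (-0.12). H6pd, which runs the steps ahead of the Pgd reaction inside the endoplasmic reticulum, stood at 1613 against 1537 (0.07). Tkt, transketolase, stood at 1682 against 1558 (0.11, its 3 probe sets from -0.03 to 0.45) and Taldo1, transaldolase, at 855 against 844 (0.02, with a sign that turned under 1 or more scalings). Tkt and Taldo1 also belong to the list of other targets.

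Around Hmox1, genes of haem and iron were balanced. Of 24 genes, 21 were expressed, 11 above and 10 below 0, with 1 higher and 1 lower by 1.5-fold or more. The median of 0.02 turned to -0.03 after quantile normalization. Hamp, the iron hormone hepcidin, was the higher one at 7168 against 4348 (0.72). Next came the haem exporter gene Flvcr1 at 186 against 132 (0.49, its other, dim probe set at -0.23) and the receptor gene Lrp1 at 995 against 787 (0.34, its other probe set at 0.02). Ppox, of haem synthesis, was the lower one at 30.8 against 61.1 (-0.88), but its 3 probe sets ran from -0.88 to 0.11. Tfrc, the transferrin receptor, stood at 629 against 746 (-0.25) and the iron exporter gene Slc40a1 at 2775 against 3264 (-0.23). Hmox2, the constitutive haem oxygenase, stood at 1209 against 1229 (-0.02, with a sign that turned under 1 or more scalings). Hpx, which binds free haem in plasma, stood at 11907 against 10672 (0.16), and Fth1, the ferritin heavy chain and a target of Nrf2, at 10306 against 10142 (0.02, likewise turning).

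Antioxidant enzymes that are not classed with the Nrf2 targets here gave a reference. Of 28 genes, 26 were expressed, 13 above and 13 below 0, with a median of -0.01 (0.02 after median centring). By size 1 (Gpx7) was higher and 0 were lower by 1.5-fold or more, and the count higher was 0 after quantile normalization, after removal of the loess trend and with a pseudocount of 20. The lowest were the metallothionein gene Mt2 at 6814 against 8557 (-0.33), the plasma glutathione peroxidase gene Gpx3 at 319 against 401 (-0.33) and Cat, catalase, at 5467 against 6791 (-0.31). The highest were Gpx7 at 136 against 86.8 (0.61), the extracellular superoxide dismutase gene Sod3 at 58.8 against 41.7 (0.45, its other probe set at -0.50) and the glutaredoxin gene Glrx2 at 521 against 382 (0.45).

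**Figure D4:**
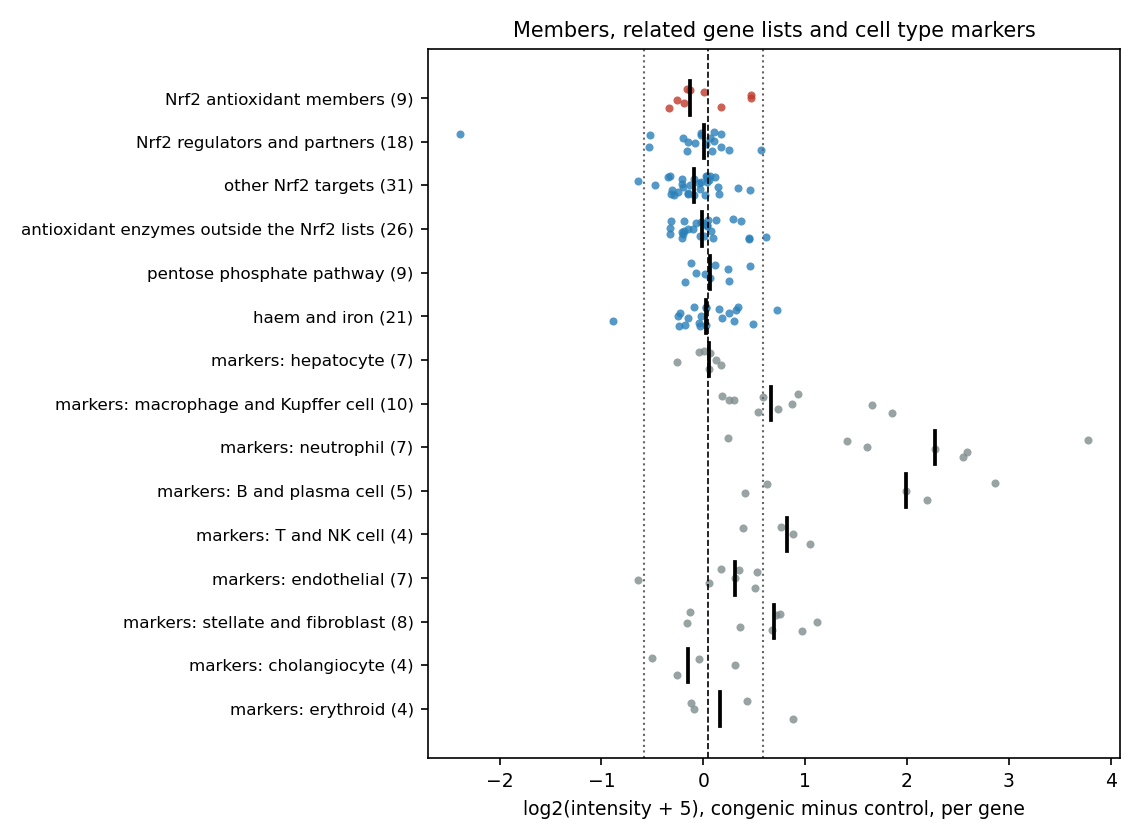
Difference of log2(intensity + 5), congenic minus control, for each expressed gene (points, by its brightest probe set) of the member genes (red), related lists (blue) and cell type markers (grey), with the number of expressed genes in brackets. Black bars are list medians, the dashed line is the median of all expressed genes (0.04) and dotted lines mark 1.5-fold: the medians of the members (-0.13) and of the other Nrf2 targets (-0.09) lie left of the dashed line, and those of macrophage, neutrophil and lymphocyte markers right of it.

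Markers of several cell types differed beside these values. All 7 hepatocyte markers with a probe set were expressed and, by their brightest probe sets, within 1.5-fold, with a median of 0.06. Alb, albumin, stood at 14121 against 12910. Over all their probe sets, Apob reached 0.64 and Hnf4a reached -0.59, both past 1.5-fold. Macrophage and Kupffer cell markers had positive differences in 10 of 10 genes, 5 of them by 1.5-fold or more, with intensities that summed, over all markers with a probe set, to 25032 on the congenic against 17373 on the control array. Neutrophil markers were positive in 7 of 7 expressed genes (summed 3963 against 1249). Of these, Camp, Ltf and Mpo were below the control array's median and met the filter only through the congenic array, which fixed their sign. B and plasma cell markers were positive in 5 of 5 (1100.1 against 274), with Cd79a (1.12) below the median of both arrays. T and NK cell markers were positive in 4 of 4 (245 against 136), with Cd3e (-0.34) and Cd4 (0.93) below both medians. Over all expressed genes 56.1% were above 0. Stellate cell and fibroblast markers were positive in 6 of 8 (summed 2989 against 1988) and endothelial markers in 6 of 7 (3523 against 3204). By brightest probe sets, the only endothelial marker past 1.5-fold was lower, Lyve1 at 467 against 733 (-0.64). A dimmer probe set of Cdh5 reached 1.16. Cholangiocyte markers summed to 143 against 162 and erythroid markers to 316 against 261. No probe set of either array stood at 0 (lowest 0.47 congenic and 0.59 control), so a listed intensity does not by itself mean that a marker was detected. In bulk liver RNA, more cells of a type and more RNA per cell cannot be told apart, and the part of the cell types in the differences of Nfe2l2, Fyn, Hmox1 or any other member was not tested. Apoe, which the control mice lack, stood at 229 against 118 (0.93); its probes may lie outside the deleted stretch, so this value checks no genotype. The actin control probe sets gave 3' to 5' ratios of 1.68 (congenic) and 1.65 (control).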

How the data were processed

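Liver RNA of 1 congenic and 1 control sample was measured; per the labels' protocols, biotinylated cRNA was made from 8 ug of total RNA by the standard Affymetrix protocol. The authors deposited linear intensities, 1 for each probe set on each array. Their summary of probes and any scaling between arrays were not stated in the sources used here. Values were used as deposited, since the array medians differed by -0.03 on the log2 scale, under the limit of 0.1. The 64 control probe sets stayed out of all counts. Differences, counts and medians were computed with python 3.11.15, numpy 2.4.6 and pandas 2.3.3 and tested on simulated data. The promoter search used the RefSeq table. Alternatives were 3 scalings, other pseudocounts, filters, size rules and probe set rules. Named genes are all members, the 3 highest and 3 lowest expressed genes of each related list, and a fixed set of pathway genes. Members and lists were chosen with earlier results of these data known. Several list members had no probe set of their own in the annotation and are not analysed here.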

Additional observations from a re-analysis of the deposited data

How the results depend on the processing

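No replicate or paired analysis was possible because each group has 1 array. No member probe set changed sign under 3 scalings (median, quantile, loess with a span of 0.3) or another pseudocount, except the brighter one of Keap1. The count of 1 member probe set higher by 1.5-fold was 0 at 2-fold and 6 with a smaller size rule. The count of 1 lower was 0 with a pseudocount of 20 and 0 with the filter at the array median, and 2 with the smaller size rule. With plain _at probe sets alone, 1 member gene was higher by 1.5-fold, in place of 0. With the motif extended by 1 base, 2 of 8 member genes matched in place of 6, 3 of 36 other targets in place of 8, and 3.45% of all genes in place of 14.0%. The median of the member genes ranged from -0.14 to -0.06, the latter when expression was set at the 75th percentile, and that of the other Nrf2 targets from -0.13 to -0.05. The medians of the regulators, the haem and iron genes and the other antioxidant enzymes lay near 0 and changed sign under 1 or more alternatives. Among the regulators, 1 gene was higher by 1.5-fold after median centring or without a pseudocount, in place of 0, and 2 were lower without a pseudocount, in place of 1. With plain _at probe sets 2 of the other targets were lower, in place of 1, and at the 75th percentile 0 haem and iron genes were lower, in place of 1. Signal near or below the array median limits the 2 dim Txnrd1 probe sets.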

Other observations

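Among members with several expressed probe sets, those of Srxn1 spread most. The 2 probe sets that list the same clone, 1451680_at and 1425351_at, had differences 1.06 apart. Over 1938 pairs of expressed probe sets that share a gene and a listed clone, the median gap was 0.21 and 2.99% had a gap as large as that of Srxn1. This comparison was chosen after seeing the data.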
